A study of Mus musculus with 24 samples.

Results

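Prostaglandin synthesis, receptor and breakdown genes were followed in the uterus of prepubertal mice after progesterone or its vehicle. The mice had or lacked a Cre-driven knockout of Ctcf, which encodes a chromatin protein. The 10 genes were taken by symbol from a gene-level table of 22943 genes: the synthesis genes Ptgs1, Ptgs2, Ptgds, Ptges and Ptgis, the receptor genes Ptger2, Ptger3, Ptger4 and Ptgfr, and the breakdown gene Hpgd. All 10 had a row and all 10 passed the filter on low values. Per the labels, every library was made from the uterus of a C57bl/6 female aged 21 days. Knockout mice (PgrCre+;Ctcf-f/f) had Ctcf floxed on both alleles and Cre driven by the progesterone receptor gene Pgr; floxed mice were littermates with the same floxed alleles and no Cre. Treated mice were given progesterone (P4), 0.5 mg in a 0.05 ml volume of sesame oil injected under the skin, and controls the oil alone, 6 h before collection. The groups were knockout P4 (4 libraries), floxed P4 (4 libraries), knockout vehicle (8 libraries) and floxed vehicle (8 libraries). All 8 P4 libraries and 4 vehicle libraries of each genotype belonged to 1 library batch, called the mixed batch here, and the other 4 vehicle libraries of each genotype belonged to a vehicle-only batch. Cre was present in knockouts alone, so effects of the Cre allele and of Ctcf loss cannot be told apart. Nothing in the labels ties each library to an animal of its own, and the p-values therefore measure spread among these libraries, which may be technical. Vehicle libraries 11a and 11b (knockout) and 1a and 1b (floxed) share a number across the batches, and whether each pair is from 1 animal is not given.

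Prostaglandins are lipid signals that cells make on demand from arachidonic acid. Cyclooxygenases (Ptgs1, Ptgs2) turn arachidonic acid into the common precursor, and terminal synthases convert it into prostaglandin D2 (Ptgds), E2 (Ptges) or prostacyclin (Ptgis). Each product acts on its own G protein-coupled receptors. The enzyme 15-hydroxyprostaglandin dehydrogenase (Hpgd) acts in prostaglandin breakdown. In the rodent uterus these signals take part in vascular permeability, implantation and decidualization, luteolysis and the contractions of labour.

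Levels are the submitters' batch-corrected RPKM (reads scaled to gene length and library size), in which 1 constant per gene and batch had been added, so that some low values lie below 0. A difference in RPKM between libraries of 1 batch is not touched by that constant, whereas a ratio is. Fold changes are on the log2(RPKM + 0.5) scale, with values below 0 set to 0 first. The added 0.5 understates fold changes of low genes, but a batch constant that moves values to or below 0 can enlarge them. The fold changes come from a limma fit over 14284 tested genes in all 24 libraries with batch as a term. A gene was called at a Benjamini-Hochberg adjusted p under 0.05 over all tested genes. The libraries held between 29900000 and 100600000 reads. At that depth 1 RPKM stood for 137 to 461 reads of Ptgs2, the gene of the 10 with the lowest levels in each group. Ctcf averaged 9.95 ± 0.981 RPKM in knockout P4 uteri, against 26.0 ± 1.04 RPKM in floxed P4 uteri (SD, n = 4 each), and 11.4 ± 1.11 RPKM in knockout vehicle uteri, against 25.9 ± 2.36 RPKM in floxed vehicle uteri (SD, n = 8 each), with no overlap. Uterine marker genes (Hoxa10, Hoxa11 and others of a list of 8) were present in every library, with a summed level between 286.5 and 471.6 RPKM. Adipose markers varied widely within groups, with sums of 75.0 to 340.4 RPKM in knockout P4, 136.5 to 561.3 RPKM in floxed P4, 28.7 to 822.9 RPKM in knockout vehicle and 4.58 to 749.9 RPKM in floxed vehicle uteri, and none of the 7 was called in any comparison. In 5 libraries marker genes of oviduct (floxed P4 7, knockout vehicle 12, floxed vehicle 3) or squamous epithelium (knockout P4 8, knockout vehicle 9) were high: the oviduct sum was 437.6 RPKM in floxed P4 7, against a group median of 14.4 RPKM, and the squamous sum was 118.8 RPKM in knockout vehicle 9, against a group median of 13.9 RPKM. Among floxed vehicle libraries Ovgp1 reached 145.7 RPKM, but the oviduct markers Foxj1 and Dynlrb2 no more than 2.53 and 1.38 RPKM. Those 2 genes reached 18.3 and 14.9 RPKM in knockout vehicle uteri and 16.3 and 19.7 RPKM in floxed P4 uteri. Floxed vehicle 3 therefore lacked the high Foxj1 and Dynlrb2, and its oviduct label rests mainly on Ovgp1.

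The 250 bases before the start site were read for 9 of the 10 genes in the RefSeq promoter windows (GRCm38.p6). Of the genes the results below turn on, 4 are printed: Ptgs1, which rose after P4 in both genotypes; Ptger2 and Ptger4, whose P4 responses differed between genotypes; and Ptgfr, the receptor gene with the lowest fitted log2 fold change between genotypes over both batches. Each runs 5′ to 3′ along the gene's own strand. Capitals mark TGTTCT or its reverse complement AGAACA, a half-site of the element bound by progesterone, glucocorticoid and androgen receptors, and GGGCGG or its reverse complement CCGCCC, the GC box.
Ptgs1 chr2:36230176-36230425 + strand: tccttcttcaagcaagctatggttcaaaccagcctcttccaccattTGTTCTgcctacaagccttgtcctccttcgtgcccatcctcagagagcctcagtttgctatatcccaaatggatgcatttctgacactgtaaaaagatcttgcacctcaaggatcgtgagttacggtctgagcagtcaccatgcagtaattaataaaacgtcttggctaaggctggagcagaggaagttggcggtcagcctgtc
Ptger2 chr14:44987861-44988110 + strand: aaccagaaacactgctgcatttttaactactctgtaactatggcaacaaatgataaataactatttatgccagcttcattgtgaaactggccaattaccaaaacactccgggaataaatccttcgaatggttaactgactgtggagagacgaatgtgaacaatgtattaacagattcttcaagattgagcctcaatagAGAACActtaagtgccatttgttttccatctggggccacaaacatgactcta
Ptger4 chr15:5244188-5244437 - strand: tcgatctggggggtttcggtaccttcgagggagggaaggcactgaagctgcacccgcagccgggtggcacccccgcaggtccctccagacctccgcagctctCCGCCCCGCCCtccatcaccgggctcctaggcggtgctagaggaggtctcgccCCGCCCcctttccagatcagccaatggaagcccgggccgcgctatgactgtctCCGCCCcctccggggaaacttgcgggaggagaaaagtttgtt
Ptgfr chr3:151837529-151837778 - strand: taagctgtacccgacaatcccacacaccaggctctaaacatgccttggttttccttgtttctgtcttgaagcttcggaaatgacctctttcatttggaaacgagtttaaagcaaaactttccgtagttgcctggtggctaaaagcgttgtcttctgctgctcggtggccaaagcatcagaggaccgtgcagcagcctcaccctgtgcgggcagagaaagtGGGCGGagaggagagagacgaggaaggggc
The half-site stood at -204 to -199 in Ptgs1 and on the other strand at -52 to -47 in Ptger2, counted from the base before the RefSeq start site as -1. It also occurred in Ptges, so 3 of the 9 windows held it, and 16.1% of 32851 mouse promoter windows of the same length did. Ptger4 had 4 GC boxes, 2 of them sharing a base, and Ptgfr had 1 at -30 to -25; 6 of the 9 windows held a GC box, and 32.7% of all windows did. The Ptger4 window was 66.8% G or C, the Ptgfr window 52%, the Ptgs1 window 48% and the Ptger2 window 38%, and the median of all windows was 52.4%. Of 2 other motifs searched on both strands, the E-box CANNTG, which overlaps the Ptgs1 half-site by its last bases, was in 8 of the 9 windows and in 66.2% of all windows, and the TATA box TATAAA was in none of the 9 and in 12.4% of all windows. GENCODE M21 places some of these starts elsewhere, so distances hold for the RefSeq starts alone. The Ptger2 window ends at 44988110, short of the GENCODE start at 44988195. Part of the Ptgfr window, its GC box included, lies inside the GENCODE gene, whose 5′ end is at 151837630. These are letter matches in these windows and say nothing of binding.

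The order of the genes by level changed with genotype and hormone. In knockout P4 uteri Ptgs1 (42.3 ± 3.65 RPKM) and Ptgds (31.7 ± 8.73 RPKM) led; in floxed P4 uteri Ptgs1 (29.5 ± 7.49 RPKM) and Ptgis (27.4 ± 4.92 RPKM) led and Ptgds was the eighth of 10. In knockout vehicle uteri Ptgis (26.0 ± 5.50 RPKM) and Hpgd (25.6 ± 2.07 RPKM) led, as they did in floxed vehicle uteri at 29.4 ± 4.93 and 21.8 ± 4.38 RPKM. Within each of these pairs the mean ± SD ranges overlapped. Ptgs2, the inducible cyclooxygenase, was last in every group, between 0.713 ± 0.128 RPKM in floxed vehicle uteri and 1.28 ± 0.879 RPKM in floxed P4 uteri.

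**Figure D1:**
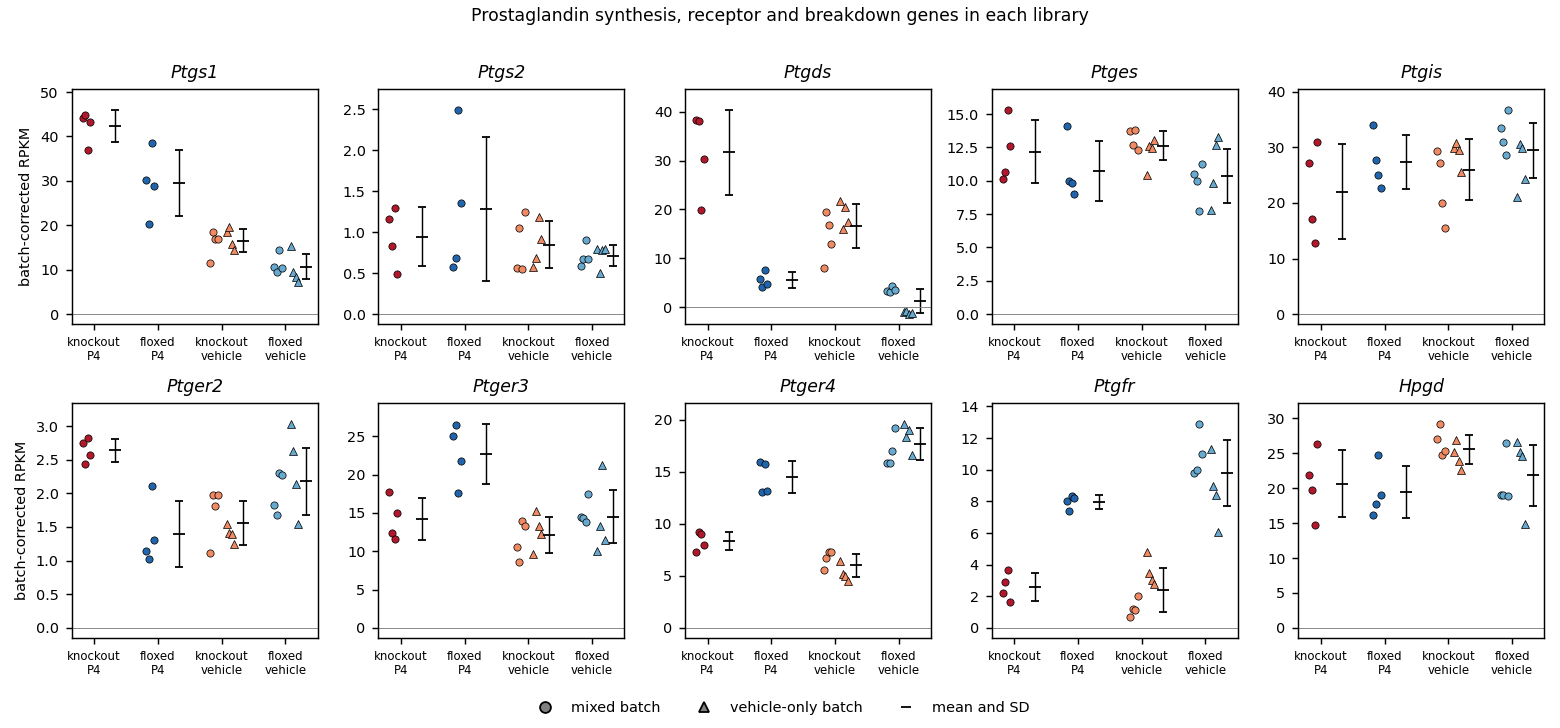
Batch-corrected RPKM (vertical axes, each from its own range) of the 10 genes in every library, by group from knockout P4 to floxed vehicle; circles are the mixed batch, triangles the vehicle-only batch, and the bar beside each group is its mean and SD. Under either treatment, all knockout libraries lie above all floxed ones for Ptgds and below them for Ptger4 and Ptgfr.

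After vehicle, knockout uteri had more RNA of the prostaglandin D2 synthase Ptgds and of the constitutive cyclooxygenase Ptgs1, and less of the receptor genes Ptger4, Ptgfr and Ptger2. So 2 of the 10 genes were higher and 3 lower, while 24.6% of all tested genes were called in this comparison (13.1% higher and 11.5% lower). Within the mixed batch, 3 of the 10 genes and 17.1% of tested genes were called. The median log2 fold change of the 10 genes was -0.03 and that of all tested genes -0.01. In bulk tissue, fewer cells of a type and less RNA per cell cannot be told apart.

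Among synthesis genes, Ptgds ranged over 7.92, 17.1 and 21.6 RPKM (lowest, median and highest) in knockout vehicle uteri, against -1.43, 1.11 and 4.39 RPKM in floxed vehicle uteri. The groups did not overlap in either batch. The fitted log2 fold change was 3.53 ± 0.41 (SE; 95% confidence interval 2.69 to 4.38; limma, adjusted p = 8.07e-07), the sixth highest of the 14284 tested genes. The size of that ratio rests on the batch constant, since the 4 floxed libraries below 0 are those of the vehicle-only batch: it was 1.80 in the mixed batch alone (adjusted p = 0.00017) and 5.27 in the vehicle-only batch alone (adjusted p = 1.14e-07). The difference in RPKM, which the constant does not touch, came to 10.7 (mixed batch) and 20.01 (vehicle-only batch). Ptgs1 had 11.5, 17.0 and 19.7 RPKM (lowest, median and highest) in knockout vehicle uteri, against 7.18, 9.90 and 15.3 RPKM in floxed vehicle uteri, with overlap at the edges. Its log2 fold change was 0.64 ± 0.14 (adjusted p = 0.00181). Taken batch by batch, the mixed one gave 0.49 (adjusted p = 0.071) and the vehicle-only one 0.78 (adjusted p = 0.0561), the same direction but short of the threshold in each. Ptges, the inducible prostaglandin E synthase, averaged 12.6 ± 1.06 RPKM in knockout vehicle uteri and 10.4 ± 2.02 RPKM in floxed vehicle uteri (SD, n = 8 each), and its log2 fold change, 0.29 ± 0.11, did not pass (adjusted p = 0.0635). It passed without floxed P4 1, knockout vehicle 4, floxed vehicle 10 or floxed vehicle 12 (adjusted p = 0.0434, 0.0403, 0.0349 and 0.0234), and in the mixed batch every knockout vehicle library was above every floxed one. Ptgis, the prostacyclin synthase, averaged 26.0 ± 5.50 against 29.4 ± 4.93 RPKM (adjusted p = 0.458), and Ptgs2 averaged 0.848 ± 0.290 against 0.713 ± 0.128 RPKM (adjusted p = 0.66), knockout first. Their 95% intervals on the log2 scale ran from -0.54 to 0.16 for Ptgis and from -0.24 to 0.50 for Ptgs2.

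Among receptor genes, Ptger4, which encodes the EP4 receptor for prostaglandin E2, had 4.498, 6.02 and 7.31 RPKM (lowest, median and highest) in knockout vehicle uteri, against 15.8, 17.7 and 19.6 RPKM in floxed vehicle uteri. No knockout library came near the floxed range in either batch. Fitted over both batches it was 0.354-fold (log2 fold change -1.50 ± 0.09, adjusted p = 3.56e-11), and the log2 values by batch were -1.28 (mixed) and -1.72 (vehicle-only). Ptger4 lies at 15:5206661-5244187 on the minus strand (GRCm38) and overlaps Ttc33 on the other strand. The strand setting of the counting was not stated, so reads in the shared stretch cannot be assigned; Ttc33 itself averaged 10.9 ± 0.693 RPKM in knockout vehicle uteri and 11.9 ± 0.836 RPKM in floxed vehicle uteri. Ptgfr, the receptor for prostaglandin F2α, had 0.669, 2.37 and 4.79 RPKM in knockout vehicle uteri, against 6.04, 9.90 and 12.9 RPKM in floxed vehicle uteri, again without overlap. Its log2 fold change was -1.97 ± 0.22 (adjusted p = 5.62e-07). By batch the log2 value was -2.75 (mixed) and -1.19 (vehicle-only), and the RPKM difference -9.68 and -5.16. Ptger2, which encodes the EP2 receptor, had 1.11, 1.48 and 1.97 RPKM in knockout vehicle uteri, against 1.54, 2.20 and 3.03 RPKM in floxed vehicle uteri. The groups overlapped and the fall was 0.77-fold (log2 fold change -0.37 ± 0.13, adjusted p = 0.0332). That call was lost within the mixed batch (-0.20, adjusted p = 0.484), within the vehicle-only batch (-0.55, adjusted p = 0.103) and on leaving out any 1 of 8 libraries, with adjusted p up to 0.0776 (knockout vehicle 9, 5, 11a and 13, and floxed vehicle 3, 4, 1a and 7). Ptger3, which encodes the EP3 receptor, averaged 12.1 ± 2.31 RPKM in knockout vehicle uteri and 14.5 ± 3.47 RPKM in floxed vehicle uteri, and its log2 fold change of -0.24 ± 0.14 did not pass (adjusted p = 0.231). Hpgd averaged 25.6 ± 2.07 against 21.8 ± 4.38 RPKM, knockout first, and did not pass either (log2 fold change 0.25 ± 0.12, adjusted p = 0.149).

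Marker lists of other cell types moved with genotype as well. Of 12 tested leukocyte markers of 14, 11 were higher and 1 (Cd14) lower in knockout vehicle uteri, with a summed level of 274.7 to 498.1 RPKM against 135.4 to 219.7 RPKM in floxed vehicle uteri; Ptprc, the defining pan-leukocyte gene, was above 0 in every library. All 3 tested gland markers of 5 were lower, with a sum of 0.404 to 2.04 RPKM in knockout vehicle uteri against 5.18 to 11.9 RPKM in floxed vehicle uteri. Of 8 epithelial markers 2 were higher and 4 lower, and of 8 stromal markers 2 were lower. Of 8 endothelial markers 3 were higher (sums of 270.0 to 381.7 RPKM in knockout vehicle uteri and 228.7 to 276.5 RPKM in floxed vehicle uteri), and so were 2 of 5 mesothelial markers. None of 7 smooth muscle markers was called, and their sum overlapped (1187 to 2141 RPKM in knockout vehicle uteri, 1413 to 1725 RPKM in floxed vehicle uteri). Of 6 tested mast cell markers 1 (Hdc) was lower. The part of these cell populations and of the adipose markers in the differences of Ptgds, Ptgs1, Ptger4 and Ptgfr was not tested.

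**Figure D2:**
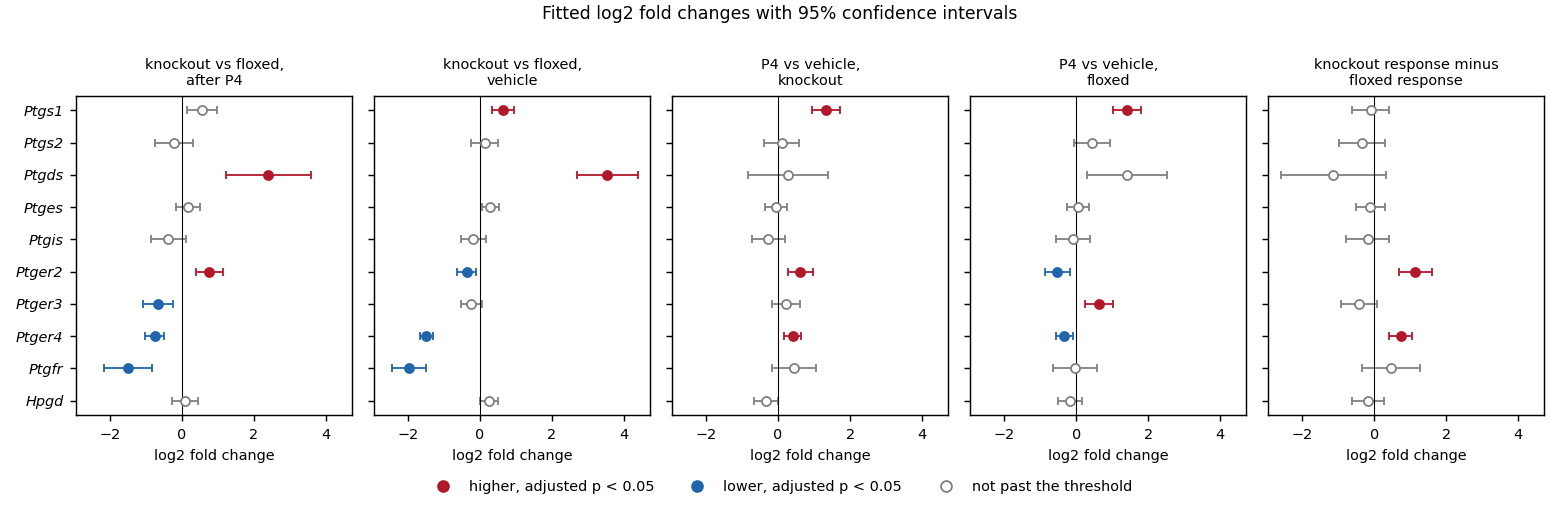
Log2 fold changes (horizontal axes, the same range in every panel) of the 10 genes with 95% confidence intervals in the 5 comparisons; red and blue points are called higher and lower at an adjusted p under 0.05, open points are not called. Ptger2 and Ptger4 are the genes called in all 5 panels, and Ptgs2, Ptges, Ptgis and Hpgd are called in none.

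After P4, the genotype difference kept its direction for Ptgds, Ptger4 and Ptgfr, and Ptger2 lay on the other side. Here too 2 of the 10 genes were higher (Ptgds, Ptger2) and 3 lower (Ptgfr, Ptger4, Ptger3) in knockout uteri, while 19.4% of all tested genes were called (12.3% higher and 7.06% lower). Within the mixed batch, 6 of the 10 genes (these and Ptgs1) and 24% of tested genes were called. The median log2 fold change was -0.07 for the 10 genes and 0.03 for all tested genes.

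Ptgds had 38.3, 38.2, 19.8 and 30.4 RPKM in knockout P4 uteri, against 5.76, 4.06, 7.65 and 4.73 RPKM in floxed P4 uteri. The lowest knockout library was above the highest floxed one. Its log2 fold change was 2.40 ± 0.57 (adjusted p = 0.00479) and the RPKM difference was 26.1 ± 3.13 (SE). Ptgs1 had 44.1, 44.9, 36.9 and 43.4 RPKM in knockout P4 uteri, against 30.2, 20.3, 38.6 and 28.9 RPKM in floxed P4 uteri; floxed library 7, one with oviduct markers, lay within the knockout range. The log2 fold change of 0.54 ± 0.20 missed the threshold (adjusted p = 0.0612). It passed without floxed P4 7 (adjusted p = 0.027), without knockout vehicle 9, floxed vehicle 1a or floxed vehicle 12 (adjusted p = 0.0456, 0.0393 and 0.0419), and in the mixed batch alone (adjusted p = 0.0369). Ptgs2, Ptges and Ptgis were not called. Ptgs2 ran from 0.494 to 1.298 RPKM in knockout P4 uteri and from 0.580 to 2.49 RPKM in floxed P4 uteri, where library 7 was again the highest; its log2 fold change was -0.21 with all libraries and 0.08 without that library.

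Ptgfr had 2.21, 2.88, 3.65 and 1.62 RPKM in knockout P4 uteri, against 7.99, 7.37, 8.33 and 8.23 RPKM in floxed P4 uteri, with a wide gap between the groups. That made its log2 fold change -1.50 ± 0.32 (adjusted p = 0.00161). Ptger4 had 7.32, 9.19, 9.01 and 7.92 RPKM in knockout P4 uteri, against 15.9, 13.1, 15.8 and 13.2 RPKM in floxed P4 uteri, also apart. Its log2 fold change was -0.76 ± 0.12 (adjusted p = 0.000126); Ttc33 averaged 10.4 ± 1.69 RPKM in knockout P4 uteri and 8.88 ± 0.0670 RPKM in floxed P4 uteri. Ptger3 had 17.8, 12.4, 11.6 and 15.0 RPKM in knockout P4 uteri, against 25.0, 26.4, 17.6 and 21.8 RPKM in floxed P4 uteri, where the highest knockout value just passed the lowest floxed one. The log2 fold change was -0.66 ± 0.20 (adjusted p = 0.0209), and the call was lost without knockout P4 5 or 6 (adjusted p = 0.0626 and 0.0669) or floxed P4 1 or 2 (adjusted p = 0.0538 and 0.0697). Ptger2 had 2.74, 2.44, 2.82 and 2.57 RPKM in knockout P4 uteri, against 1.14, 1.018, 2.11 and 1.301 RPKM in floxed P4 uteri, so that every knockout library was above every floxed one. It was 1.70-fold higher (log2 fold change 0.76 ± 0.18, adjusted p = 0.00406). Hpgd averaged 20.6 ± 4.80 RPKM in knockout P4 uteri and 19.4 ± 3.71 RPKM in floxed P4 uteri (adjusted p = 0.802). Leukocyte markers stood at 11 of 12 higher, with sums of 211.1 to 509.6 RPKM in knockout P4 uteri and 140.0 to 246.4 RPKM in floxed P4 uteri; all 3 tested gland markers were lower, with sums of 0.942 to 2.64 RPKM against 10.7 to 14.1 RPKM. Of 8 epithelial markers 3 were higher, of 8 stromal markers 3 were lower, of 8 endothelial markers 1 was higher, and of 5 mesothelial markers 1 was higher and 1 lower. Of 6 tested mast cell markers 1 (Hdc) was lower. Their part in these differences was not tested.

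In floxed uteri, P4 raised Ptgs1 and Ptger3 and lowered Ptger2 and Ptger4. That is 2 higher and 2 lower of the 10 genes, while 23% of all tested genes were called (7.84% higher and 15.1% lower), with a median log2 fold change of 0.01 over the 10 genes and -0.06 over all tested genes. Within the mixed batch, 2 of the 10 genes (Ptgs1, Ptger3) and 26.6% of tested genes were called. The P4 and vehicle groups of each genotype are the same libraries as in the genotype comparisons above. Ptgs1 had the largest called change: the 4 floxed P4 values given above, 20.3 to 38.6 RPKM, all lay above the floxed vehicle range of 7.18 to 15.3 RPKM. The log2 fold change was 1.41 ± 0.19 (2.66-fold, 95% confidence interval on the log2 scale 1.021 to 1.803, adjusted p = 1.12e-05). Ptger3 was at 17.6 to 26.4 RPKM in floxed P4 uteri, against 10.1, 14.03 and 21.2 RPKM (lowest, median and highest) in floxed vehicle uteri. In the mixed batch alone these groups did not overlap, and in the whole set the log2 fold change was 0.64 ± 0.18 (adjusted p = 0.0151); without floxed P4 2 the adjusted p was 0.0543. Ptger2 was at 1.018 to 2.11 RPKM in floxed P4 uteri and 1.54 to 3.03 RPKM in floxed vehicle uteri, and the response was -0.53 ± 0.17 on the log2 scale (adjusted p = 0.0268). The call was lost without floxed P4 1, 2 or 9 (adjusted p = 0.0756, 0.0991 and 0.0663), without floxed vehicle 3 or 4 (adjusted p = 0.054 and 0.0502), and in the mixed batch (-0.44, adjusted p = 0.0707). Ptger4 was at 13.1 to 15.9 RPKM in floxed P4 uteri and 15.8 to 19.6 RPKM in floxed vehicle uteri, a small fall of 0.33 on the log2 scale (SE 0.12, adjusted p = 0.0427). Leaving out any 1 of 11 libraries ended that call, with adjusted p between 0.0513 and 0.131 (floxed P4 2 and 9, floxed vehicle 1a, 4, 7 and 10, and knockout vehicle 5, 10, 11a, 11b and 12). The overlapping gene Ttc33 was also lower, at 8.82 to 8.97 RPKM in floxed P4 uteri against 10.7 to 12.9 RPKM in floxed vehicle uteri. Its part in the Ptger4 fall was not tested. Ptgds averaged 5.55 ± 1.57 RPKM in floxed P4 uteri and 1.23 ± 2.52 RPKM in floxed vehicle uteri; the log2 fold change of 1.42 ± 0.54 did not pass (adjusted p = 0.0601) but did without floxed vehicle 1b, 3 or 4 (adjusted p = 0.0494, 0.0351 and 0.0474). Within the mixed batch, where the constant is shared, the difference was 1.99 ± 3.31 RPKM (SE, adjusted p = 0.718). Ptgfr had a log2 fold change of -0.03 ± 0.30 with both batches (adjusted p = 0.954); in the mixed batch its floxed P4 range of 7.37 to 8.33 RPKM lay below its floxed vehicle range of 9.81 to 12.9 RPKM, and the difference of -2.94 ± 0.598 RPKM passed on the linear scale (adjusted p = 0.00236) while the log2 fold change of -0.42 did not (adjusted p = 0.147). Ptgs2, Ptges, Ptgis and Hpgd were not called, with adjusted p of 0.193 for Ptgs2 and higher for the other 3. Of the marker lists, 2 of 8 epithelial and 2 of 5 mesothelial genes were lower after P4, 1 of 8 stromal genes was higher and 1 lower. Higher too were 1 of 3 tested gland, 1 of 6 tested mast cell (Hdc) and 1 of 5 tested squamous markers. Gland sums were 10.7 to 14.1 RPKM in floxed P4 uteri and 5.18 to 11.9 RPKM in floxed vehicle uteri. Their part in these responses was not tested.

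In knockout uteri, P4 raised Ptgs1, Ptger2 and Ptger4 and lowered none of the 10 genes, while 8.67% of all tested genes were called (4% higher and 4.66% lower). Within the mixed batch, 3 of the 10 genes (Ptgs1, Ptgds, Ptgfr) and 8.74% of tested genes were called. The median log2 fold change was 0.25 for the 10 genes and -0.02 for all tested genes. Ptgs1 was at 36.9 to 44.9 RPKM in knockout P4 uteri, against 11.5 to 19.7 RPKM in knockout vehicle uteri, a gap wider than either range. The log2 fold change was 1.32 ± 0.19 (2.49-fold, adjusted p = 0.000133). Ptger2 was at 2.44 to 2.82 RPKM in knockout P4 uteri, above the 1.11 to 1.97 RPKM of knockout vehicle uteri, and its log2 fold change was 0.61 ± 0.17 (adjusted p = 0.0244). Ptger4 was at 7.32 to 9.19 RPKM in knockout P4 uteri, just above the 4.498 to 7.31 RPKM of knockout vehicle uteri, and its log2 fold change was 0.41 ± 0.12 (adjusted p = 0.0305). Both receptor calls rested on few libraries. The Ptger2 call was lost without knockout P4 4 or 6 or knockout vehicle 9 (adjusted p = 0.0558, 0.058 and 0.0664), the Ptger4 call without knockout P4 5 or 6 or knockout vehicle 9 (adjusted p = 0.1, 0.082 and 0.0718), and both without the 5 libraries with oviduct or squamous markers (adjusted p = 0.0898 and 0.12) and in the mixed batch alone (adjusted p = 0.0719 and 0.0937). With both batches the Ptgds log2 fold change was 0.28 ± 0.54 (adjusted p = 0.811), but in the mixed batch every knockout P4 library (19.8 to 38.3 RPKM) was above every knockout vehicle library (7.92 to 19.4 RPKM). There the log2 fold change was 1.15 ± 0.26 (adjusted p = 0.0105) and the difference 17.4 ± 3.31 RPKM (SE, adjusted p = 0.0053); on the linear scale the difference over both batches was 15.1 ± 2.92 RPKM (adjusted p = 0.00238). Ptgfr had a log2 fold change of 0.44 ± 0.30 over both batches (adjusted p = 0.416) and of 0.83 ± 0.21 in the mixed batch (adjusted p = 0.0203). Hpgd averaged 20.6 ± 4.80 RPKM in knockout P4 uteri and 25.6 ± 2.07 RPKM in knockout vehicle uteri, a log2 fold change of -0.33 ± 0.16 (adjusted p = 0.229). Ptgs2, Ptges, Ptgis and Ptger3 were not called. Of 8 stromal markers 1 was higher and 4 lower after P4 (sums of 878.1 to 1526 RPKM in knockout P4 uteri and 1321 to 2778 RPKM in knockout vehicle uteri), and 2 of 8 epithelial markers were higher (336.8 to 494.9 RPKM and 264.6 to 411.2 RPKM in the same groups). Higher too were 1 of 12 tested leukocyte markers (Cd14) and 1 of 6 tested mast cell markers (Hdc). Their part in these responses was not tested.

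The difference between the genotypes in their P4 response was tested directly. It passed for 2 of the 10 genes, Ptger2 and Ptger4, both with a higher response in knockout uteri; 2.49% of all tested genes were called in this test (1.46% higher and 1.03% lower). Within the mixed batch, 2 of the 10 genes (Ptger2, Ptgfr) and 2.99% of tested genes were called. For Ptger2 the knockout response minus the floxed response was 1.14 ± 0.22 on the log2 scale (95% confidence interval 0.68 to 1.59, adjusted p = 0.00445), and for Ptger4 it was 0.74 ± 0.15 (0.422 to 1.053, adjusted p = 0.00788). Both kept their call in each of the 24 refits that left out 1 library, and without the 5 libraries with oviduct or squamous markers (adjusted p = 0.00899 for Ptger2 and 0.0288 for Ptger4). With the library number fitted as a replicate block, neither Ptger2 nor Ptger4 was called. With the filter raised to 5 RPKM, Ptger2 was not tested. In the mixed batch alone the value was 0.96 for Ptger2 (adjusted p = 0.0445) and 0.52 for Ptger4 (adjusted p = 0.0729). Ttc33, which overlaps Ptger4, averaged 8.88 ± 0.0670 RPKM in floxed P4 uteri and 11.9 ± 0.836 RPKM in floxed vehicle uteri, without overlap. In knockout uteri Ttc33 averaged 10.4 ± 1.69 RPKM after P4 and 10.9 ± 0.693 RPKM after vehicle. The part of Ttc33 reads in the Ptger4 difference was not tested. Ptgs1, which rose in both genotypes, had a difference in response of -0.09 ± 0.25 (95% confidence interval -0.61 to 0.42, adjusted p = 0.923). For Ptgfr the difference was 0.47 ± 0.39 over both batches (adjusted p = 0.653) and 1.25 ± 0.29 in the mixed batch (adjusted p = 0.0305). For Ptgds it was -1.14 ± 0.70 over both batches (adjusted p = 0.512) but 0.60 ± 0.36 in the mixed batch (adjusted p = 0.439) and, as a difference in RPKM, 10.8 ± 3.83 over both batches (SE, adjusted p = 0.158), so its sign depended on the scale and the batches used. Ptger3 had -0.42 ± 0.24 (adjusted p = 0.46): its rise passed in floxed uteri and not in knockout uteri, but the difference itself did not pass. Pgr, the gene of the progesterone receptor, averaged 13.4 ± 3.60 RPKM in knockout P4 uteri, 10.99 ± 3.29 RPKM in floxed P4 uteri, 23.2 ± 3.84 RPKM in knockout vehicle uteri and 39.5 ± 4.18 RPKM in floxed vehicle uteri; its part in the responses was not tested.

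**Figure D3:**
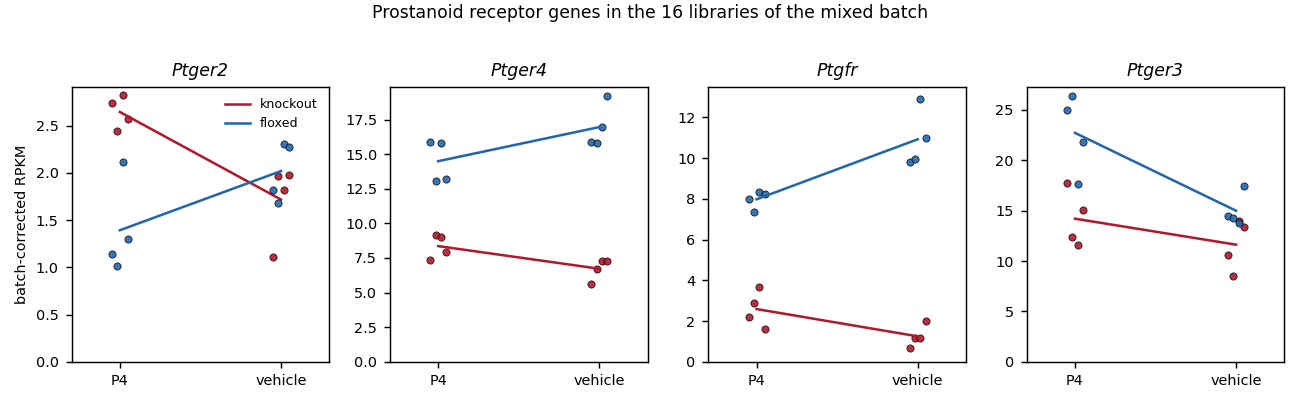
Batch-corrected RPKM (vertical axes, from 0) of the 4 receptor genes after P4 and after vehicle in the 16 libraries of the mixed batch; points are libraries and lines join the group means, knockout in red and floxed in blue. For Ptger2 the lines cross, with knockout P4 libraries at 2.44 to 2.82 RPKM above floxed P4 libraries at 1.018 to 2.11 RPKM.

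The genes whose levels ran most alike were sought over the 16 mixed-batch libraries, by Pearson's r of log2(RPKM + 0.5), for the members with the largest fitted genotype difference after vehicle (Ptgds, Ptgfr) and the largest fitted P4 response in floxed uteri (Ptgds, Ptgs1). The fitted P4 response of Ptgds in floxed uteri was not called (limma, adjusted p = 0.0601). The 16 libraries are of 1 batch and differ in genotype and treatment, so r describes how alike the genes vary over those 4 groups. Nearest to Ptgfr was Ptger4 itself (r = 0.977), then Magix (0.952), Ggt6 (0.947), Kcnd3 (0.946) and Dennd6b (0.945). Nearest to Ptgds were the chemokine gene Cxcl14 (0.983), Stx7 (0.974), Scamp5 (0.974), Gdpd1 (0.968) and Kcnmb4 (0.968). Nearest to Ptgs1 were Ggct (0.966), Clic3 (0.957), Arg2 (0.955), Slc27a2 (0.954) and Spink8 (0.952).

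Beyond the 10 genes, 51 of 55 further genes of eicosanoid synthesis, reception and clearance were in the table and 37 were tested. Of these 37, 11 were higher and 5 lower in knockout than in floxed vehicle uteri, 8 higher and 2 lower in knockout than in floxed P4 uteri, 6 higher and 2 lower after P4 in knockout uteri, and 4 higher and 5 lower after P4 in floxed uteri, where 24.6%, 19.4%, 8.67% and 23% of all tested genes were called. For the difference in response 1 was higher (Pla2g7) and 1 lower (Slco3a1), with 2.49% of all tested genes called. Of 9 tested genes of arachidonate release, 2 were higher and 3 lower in knockout vehicle uteri, against 13.1% higher and 11.5% lower among all tested genes. Pla2g10, a secreted phospholipase A2, averaged 8.51 ± 4.65 RPKM in knockout P4 uteri, against 37.0 ± 8.36 RPKM in floxed P4 uteri, and 1.71 ± 1.27 RPKM in knockout vehicle uteri, against 7.59 ± 1.76 RPKM in floxed vehicle uteri. It was lower in knockout uteri after P4 (log2 fold change -2.24 ± 0.41, adjusted p = 0.000395) and after vehicle (-2.0 ± 0.29, adjusted p = 1.51e-05), and it rose with P4 in knockout (2.14 ± 0.38, adjusted p = 0.000971) and in floxed uteri (2.38 ± 0.38, adjusted p = 0.000101). Pla2g5, another secreted phospholipase, and Pla2g4a, the cytosolic phospholipase that supplies cyclooxygenases, were lower in knockout vehicle uteri (log2 fold changes -1.09 and -0.55, adjusted p = 4.54e-05 and 0.00522). After P4 neither was called between genotypes, at 0.0018 for Pla2g5 (adjusted p = 0.998) and 0.22 for Pla2g4a (adjusted p = 0.475). Anxa1, which encodes the phospholipase-restraining protein annexin A1, was higher in knockout uteri after P4 (1.32 ± 0.20, adjusted p = 4.9e-05) and after vehicle (0.61 ± 0.14, adjusted p = 0.00232). Pla2g7, the platelet-activating factor hydrolase, had a higher P4 response in knockout uteri (difference 1.13 ± 0.25, adjusted p = 0.0152), a call lost without floxed P4 2 (adjusted p = 0.0508).

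Of 10 tested terminal synthases, Tbxas1, the thromboxane synthase, averaged 2.11 ± 0.748 RPKM in knockout P4 uteri, against 0.978 ± 0.176 RPKM in floxed P4 uteri, and 2.03 ± 0.478 RPKM in knockout vehicle uteri, against 0.932 ± 0.270 RPKM in floxed vehicle uteri (adjusted p = 0.0066 and 0.000104). Akr1b7, an aldo-keto reductase with prostaglandin F synthase activity, was higher in knockout uteri after P4 (log2 fold change 1.33 ± 0.23, adjusted p = 0.000236) and after vehicle (0.75 ± 0.16, adjusted p = 0.00143). Among 5 other tested genes of the receptor list, Ptgdr2, the prostaglandin D2 receptor of eosinophils and type 2 lymphoid cells, averaged 1.70 ± 0.845 RPKM in knockout P4 uteri, against 0.505 ± 0.177 RPKM in floxed P4 uteri, and 3.19 ± 0.706 RPKM in knockout vehicle uteri, against 1.35 ± 0.379 RPKM in floxed vehicle uteri. Its log2 fold changes were 1.06 ± 0.25 (adjusted p = 0.00394) and 1.00 ± 0.18 (adjusted p = 0.000162). The leukocyte marker sums given above had higher medians in knockout uteri under either treatment, with overlap between genotypes after P4. Their part in the Ptgdr2 differences was not tested. Ptger1, Ptgir and Tbxa2r were not called between genotypes. Ptgfrn, a regulator of the prostaglandin F receptor and no prostanoid receptor itself, was higher in knockout vehicle uteri (0.18 ± 0.06, adjusted p = 0.0339). That call was lost in several refits without 1 library, with adjusted p up to 0.0713. Among transport genes, Slco3a1, an organic anion transporter that carries prostaglandins, averaged 7.36 ± 1.26 RPKM in knockout P4 uteri, against 10.7 ± 2.22 RPKM in floxed P4 uteri, and 6.85 ± 0.312 RPKM in knockout vehicle uteri, against 5.15 ± 0.406 RPKM in floxed vehicle uteri. It rose with P4 in floxed uteri (0.97 ± 0.11, adjusted p = 1.25e-06), and the knockout response was lower by the direct test (difference -0.89 ± 0.14, adjusted p = 0.000866). Of 7 tested lipoxygenase and leukotriene genes, Alox12 rose with P4 in knockout (1.12 ± 0.14, adjusted p = 2.44e-05) and in floxed uteri (1.14 ± 0.14, adjusted p = 3.03e-06). Alox15, an arachidonate lipoxygenase, was higher in knockout P4 uteri (3.44 ± 0.77, adjusted p = 0.00304), at 7.24 to 31.4 RPKM, against -1.72 to 11.8 RPKM in floxed P4 uteri. The Alox15 median in floxed P4 uteri was -0.22 RPKM, so its fold size rests on the batch constant and the pseudocount: without floxed P4 1 the log2 value was 2.93 and without floxed P4 7 it was 4.47. The Alox15 difference in RPKM within the mixed batch was 14.9 ± 4.88 (SE, adjusted p = 0.0421).

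**Figure D4:**
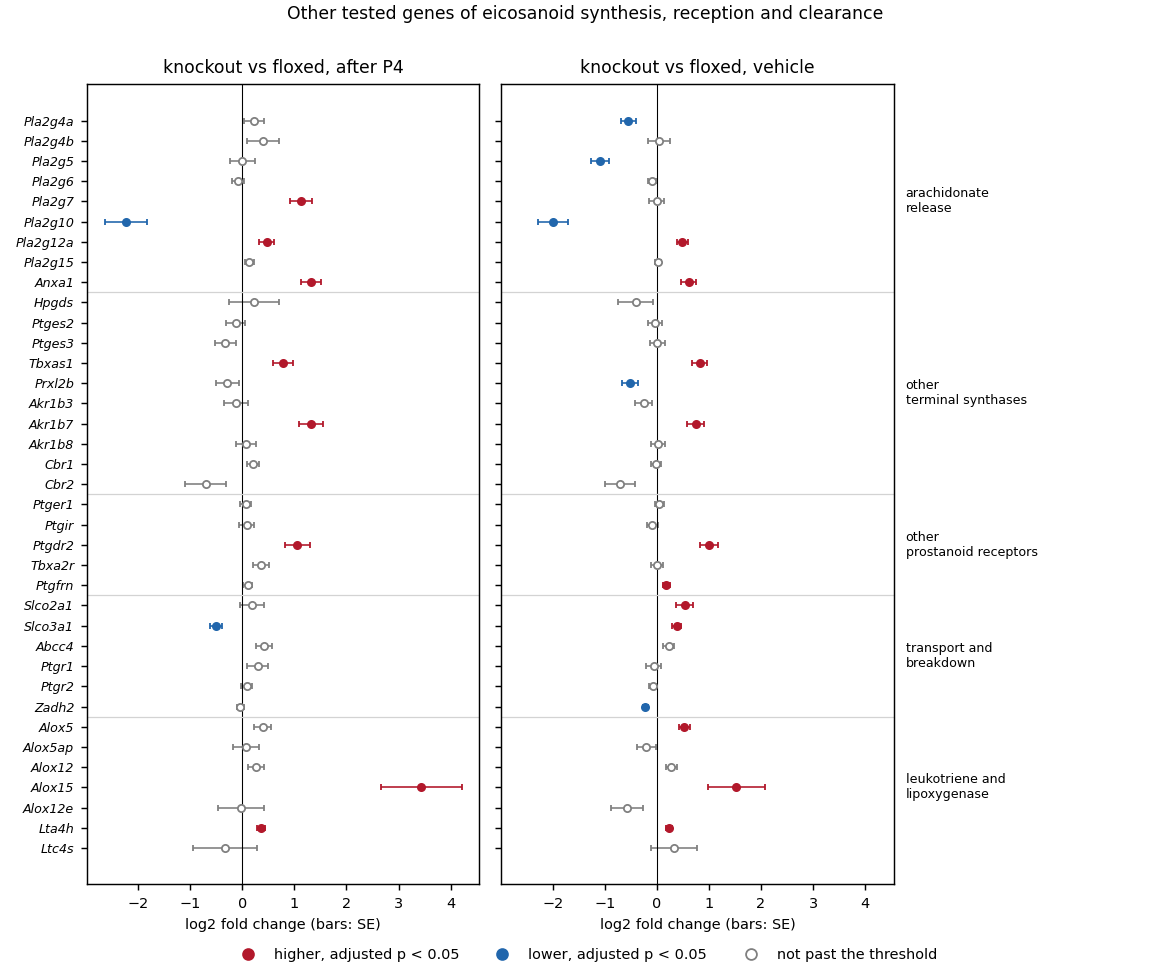
Log2 fold changes (horizontal axes, the same range in both panels; bars are SE) between knockout and floxed uteri for the 37 other tested genes of the pathway, grouped by role, after P4 (left) and after vehicle (right); red and blue points are called at an adjusted p under 0.05. Pla2g10 lies lowest on both sides, near -2.24 and -2.0.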

How the data were processed

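Per the labels' protocols, mouse uterus RNA was extracted with Trizol, treated with DNase and made into Illumina TruSeq libraries. The tools were cutadapt 2.7, TopHat and Partek with the mm10 build, per the submitters' processing notes; for the counting tool, annotation, strand setting and correction method, details were not given in the sources used here. Deposited values are handled as a score, since the authors deposited batch-corrected RPKM: 6.66% of values lie below 0, and in all 13669 genes averaging over 1 the corrected vehicle means of the 2 batches matched, to a relative 0.0001. Depth was read from what 1 read is worth in low genes, 29900000 to 100600000 reads a library. No interval for counting error is given, and the 95% confidence intervals come from the spread among libraries in the limma fit.

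Values below 0 were set to 0 and log2(RPKM + 0.5) was fitted with limma 3.58.1 in R 4.3.3 for genes that reached 1 RPKM in 4 or more libraries, with 1 coefficient per group, a batch term, and trend and robust variance moderation (19 residual degrees of freedom). Of 14284 tested genes, 351 had a value below 0. The 5 contrasts were 2 genotype comparisons, 2 P4 responses and the difference between the responses, each two-sided with Benjamini-Hochberg adjustment. The procedure was tested on simulated data with normal noise. The simulation held no batch effect and no batch correction, so it cannot show how the fit handles the batch constant. Alternatives were other pseudocounts and filters, no batch term, each batch alone, the linear scale, quantile normalization, library weights, a replicate block, and leaving out libraries; the linear scale in the mixed batch alone, and leaving out vehicle libraries 11a and 1a, were added after seeing the data. The members, lists and tests were chosen with earlier results of these data known. All 10 genes are named in every comparison; of other pathway lists, up to 4 called genes per list and comparison with the smallest adjusted p could be named, and for genes with the largest fold changes the 5 with the highest r. Promoters are RefSeq windows on GRCm38.p6, gene places are GENCODE M21 on GRCm38. Ptgis had no window and is not shown.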

Additional observations from a re-analysis of the deposited data

Results flagged for a closer look

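The test of the difference between P4 responses drew attention to 2 genes. For Ptger2 the knockout response minus the floxed response was 1.14 on the log2 scale (limma, adjusted p = 0.00445), and for Ptger4 it was 0.74 (adjusted p = 0.00788). Ptger4 overlaps Ttc33, and the part of Ttc33 reads in its value was not tested.

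For Ptges, knockout vehicle library 4 lay far below the other 7 of its group, at 10.41 RPKM against a group median of 12.7 RPKM. Without it the adjusted p of the genotype difference after vehicle was 0.0403, against 0.0635 with it. It was the only such value among 40 groups of libraries examined, where chance gives about 1 in 20.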

How the results depend on the processing

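The higher Ptgds and lower Ptger4 and Ptgfr in knockout uteri after vehicle, and the rise of Ptgs1 with P4 in floxed uteri, kept their direction and their call under every alternative run, each of the 24 refits without 1 library included. Counts moved more. With 3516 called genes after vehicle in the reported fit, a filter at 5 RPKM gave 2293, the vehicle-only batch 1085, library weights 6500 and the linear scale in the mixed batch 2290; for the 10 members (5 in the reported fit) the mixed batch, the vehicle-only batch and the linear scale in the mixed batch gave 3 each. After P4 (2767 genes), weights gave 7123. For the P4 response in floxed uteri (3280 genes, 4 members), weights gave 6276, leaving out the 5 libraries with oviduct or squamous markers gave 2022, and the mixed batch called 2 members. For that in knockout uteri (1238 genes, 3 members), no batch term gave 1909, weights 5965 with 6 members, and leaving out the 5 libraries 383 with 1 member. For the difference in response (355 genes, 2 members), the filter gave 236 with 1 member (Ptger2 was no longer tested), weights 4122 with 4 members, and leaving out the 5 libraries 176. Leaving out 1 library at a time gave 204 to 715 genes for the difference in response, 1 to 5 members for the P4 response in floxed uteri and 1 to 3 in knockout uteri; the furthest were without knockout P4 5 (204 genes), floxed P4 9 (236 genes, 2 members), floxed vehicle 12 (715 genes), floxed P4 2 (1 member) and knockout P4 6 or knockout vehicle 9 (1 member each). The cause was not tested.

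Signs turned for values that were not called. For the P4 response in floxed uteri, Ptgfr became 0.0175 (pseudocount 0.1), 0.0268 (quantile normalization) and 0.0121 (without the 5 libraries), and ran from -0.103 to 0.113 without 1 library; with weights Hpgd became 0.0177 and Ptges -0.0615, and Ptges ran from -0.0815 to 0.123 without 1 library. In knockout uteri, Ptgds became -0.238 (pseudocount 0.1) and -0.361 (without the 5 libraries) and ran from -0.0875 (without knockout vehicle 9) to 0.488, Ptger3 became -2e-04 with weights, and without 1 library Ptges ran from -0.174 to 0.0166 and Ptgs2 from -0.0179 to 0.267. For the difference in response, Ptgds became 0.599, Ptgis 0.147 and Ptgs1 0.0531 in the mixed batch; on the linear scale Ptgds was 10.8 and Ptgs1 6.88 RPKM, and in the mixed batch Ptgds was 15.4, Ptgs1 8.02 and Ptgis 4.06 RPKM. Ptgis was 0.0033 with weights and Ptgs2 0.106 without the 5 libraries, and without 1 library Ptges ran from -0.224 to 0.0191, Ptgis from -0.374 to 0.0435 and Ptgs1 from -0.258 to 0.0463. Between genotypes, Ptgis became 0.141 after vehicle in the vehicle-only batch; after P4, Hpgd became -0.0387 with weights and ran from -0.0478 to 0.224 without 1 library, and Ptgs2 became 0.247 without the 5 libraries and ran from -0.411 to 0.0785 (without floxed P4 7).

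Library numbers recur between groups, and deviations of same-numbered libraries correlated at -0.23 to 0.54 over 9 pairs, 5 of them above 0.1. Pairs with different numbers were not examined beside them, so these values cannot decide whether the numbers pair libraries. The reported fit treated the libraries as unpaired. With the number as a replicate block, 822 genes and 1 member were called after P4, 1 member for the P4 response in floxed uteri, 162 genes and 0 members in knockout uteri, and 26 genes and 0 members for the difference in response; after vehicle 2435 genes and 5 members were. Under the block Ptges was -0.21 after P4, Ptgfr 0.16, -0.15 and -0.32 for the P4 response in floxed uteri, in knockout uteri and their difference, and Ptgds -0.33 in knockout uteri. Of all values compared, 554 of those outside the refits without 1 library stayed on their side, 42 lost and 27 gained a call, and 26 turned sign; in the refits without 1 library these numbers were 1138, 35, 11 and 16. With knockout vehicle 11a and floxed vehicle 1a left out, an alternative added after seeing the data, the calls of Ptger2 after vehicle (adjusted p = 0.102) and of Ptger4 for the P4 response in floxed uteri (0.0625) were lost and that of Ptgs1 after P4 was gained (0.0456); no other member's call changed. Ptgs2 stayed under 3 RPKM in every library. Its spread among libraries was widest in floxed P4 uteri, at 1.28 ± 0.879 RPKM (SD), which limits its precision there.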
